A study of Mus musculus with 6 samples.

Results

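The CLK, DYRK and SRPK kinases are protein kinases that phosphorylate SR proteins, the serine- and arginine-rich splicing factors. The 10 genes described here (Clk1, Clk2, Clk3, Clk4, Dyrk1a, Dyrk1b, Dyrk2, Dyrk3, Srpk1 and Srpk2) were chosen by name, as kinases that act on SR proteins and loosen nuclear speckles, out of 55487 genes in the counts. All 10 were found, and 9 had enough counts to be tested; Dyrk1b did not. RNA was sequenced from αTC1, an established mouse line of glucagon-producing α cells that was derived from a glucagonoma. The labels name no engineered allele, and the cells had been treated either with G786-1089, an inhibitor of the splicing factor SMNDC1, or with the solvent DMSO, with 3 libraries per treatment. G786-1089 was taken to be compound 1 of the study, whose methods do not use that code, and the labels give neither dose nor duration for these libraries. The comparison asks how the transcripts of the kinases differed between cells with this compound and cells with DMSO. SMNDC1 is a protein of nuclear speckles. The study calls compound 1 non-selective, saw effects of it on the related protein SMN, and reports cell death on longer treatment. Whether the changes came through SMNDC1 was not tested.

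Nuclear speckles are membrane-free bodies in which splicing factors are stored and from which they are released to sites of transcription. SRPK kinases phosphorylate SR proteins mainly in the cytoplasm, which allows their import into the nucleus, while CLK kinases add further phosphates inside the nucleus and release SR proteins from speckles. DYRK3 dissolves several kinds of condensates, speckles among them, and Clk1 and Clk4 transcripts are known to be partly held in the nucleus with unspliced introns.

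Transcripts of 4 of the 9 tested kinases rose with G786-1089: Dyrk3, Clk4, Srpk2 and Clk1. By edgeR 0 of these 9 fell, also at an unadjusted p under 0.05, and by DESeq2 0 fell at either threshold. In an edgeR fit without the filter on low counts, Dyrk1b was lower at an unadjusted p of 0.036 and was not called (adjusted p = 0.209). With the column letter as a replicate block, 2 kinases were called, Dyrk3 and Clk4. Dyrk3 rose 3.32-fold and Clk4 3.16-fold, Srpk2 1.77-fold and Clk1 1.55-fold. Clk2, Clk3, Dyrk1a, Dyrk2 and Srpk1 did not pass the test. A gene was called at an adjusted p under 0.05 in edgeR's quasi-likelihood test, adjusted over all 15082 tested genes. By that rule 14.8% of all tested genes were called, 6.98% as higher and 7.8% as lower. DESeq2 called 1858 of the 15082 as higher and 1811 as lower. An unadjusted p under 0.05 was more common: the gene ranked 4047 by p-value had an edgeR p of 0.0436. In 5 kinases (the 4 called and Dyrk1a) all libraries with G786-1089 lay above all DMSO libraries, as did 18.2% of all tested genes. The median log2 fold change was 0.63 over the 9 kinases and 0.041 over all tested genes. Since these are bulk libraries, fewer cells that express a gene and less RNA of it per cell cannot be told apart, and p-values measure the spread between these libraries, which may be technical. The study states for its cell culture work that the samples of a replicate came from a common batch of cells and were handled together, but no source ties the column letters to replicates.

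Total counts were between 59070705 and 94747943 per library, and each G786-1089 library was deeper than each DMSO library. Thinning all libraries to the lowest total kept the same 4 kinases called. Gcg, the glucagon gene, was the most highly counted of the α cell markers. Of the 8 tested α cell markers 5 fell with G786-1089 and 0 rose by edgeR, and 0 rose at an unadjusted p under 0.05 or by DESeq2. Their summed level was between 4730 and 5403 CPM (counts relative to the library total, scaled by TMM) with G786-1089 and between 23457 and 26035 CPM with DMSO. Of 18 markers of other cell types, 8 were at 0 in every library, among them Ins1, Sst, Ppy, Cpa1, Prss1 and Cdh5. Summed over the 18 they reached 42.6 to 69.8 CPM with G786-1089 and 29.5 to 44.0 CPM with DMSO. The part of these markers in the kinase results was not tested. Smndc1 itself, which the compound targets as a protein, was at 3.80 ± 2.42 CPM with G786-1089 and 2.12 ± 0.58 CPM with DMSO (SD, n = 3 each) and was not called (edgeR adjusted p = 0.481).

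**Figure D1:**
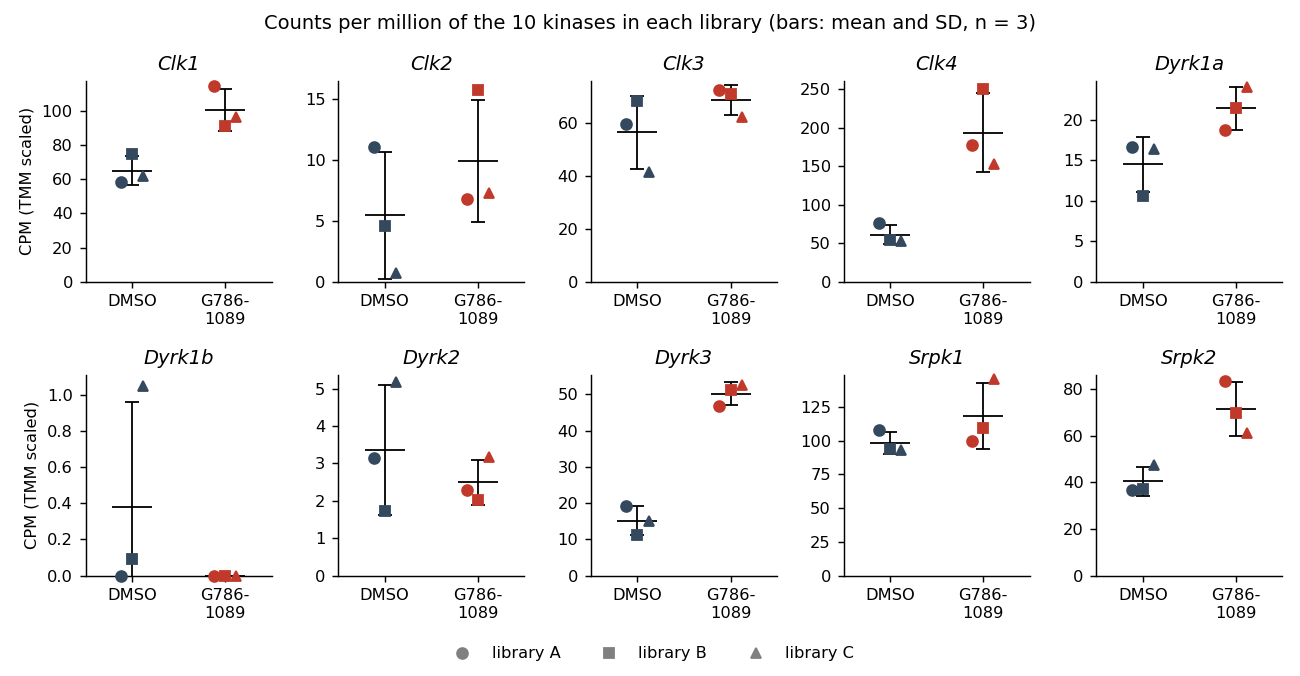
CPM (TMM scaled, y axes from 0, each panel on its own scale) of the 10 kinases in the 3 DMSO and 3 G786-1089 libraries; symbols give the library letter, bars the mean and SD, and the lower arm of Dyrk1b ends at the axis. The treatments are apart for Clk1, Clk4, Dyrk1a, Dyrk3 and Srpk2 and overlap for the others.

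The CLK kinases are also called LAMMER kinases, after a conserved signature of residues in the kinase domain. The coding sequences around it (GRCm38 transcripts) are shown because the 4 members are close relatives, and reads must differ between them to be counted apart. Capitals mark the codons at the place of the signature. They read LAMMER in Clk1, Clk2 and Clk4 but LVMMEK in Clk3. The stretch begins at codon 385 of 483 in Clk1, 388 of 500 in Clk2, 529 of 638 in Clk3 and 384 of 481 in Clk4.
Clk1: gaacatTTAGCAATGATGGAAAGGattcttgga
Clk2: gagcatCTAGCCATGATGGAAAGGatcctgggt
Clk3: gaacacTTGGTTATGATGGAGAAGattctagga
Clk4: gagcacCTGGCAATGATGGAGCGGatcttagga
Over these 33 bases Clk1 and Clk4 differed at 9 positions, and any other pair at 6 to 11. Over the whole coding sequence Clk1 and Clk4 were the closest pair of CLK members, with 74.6% identical bases, but the longest run they share was 34 bases, shorter than the 100 bp reads.

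Clk4, a nuclear kinase whose active form disperses SR proteins, lies at chr11:51261730-51281766 on the plus strand. It had 178, 250 and 153 CPM in the G786-1089 libraries A, B and C and 75.7, 54.4 and 53.5 CPM in the DMSO libraries A, B and C. All treated libraries were above all controls, with library B of G786-1089 the highest. Its mean was 194 ± 50.7 CPM with G786-1089 and 61.2 ± 12.5 CPM with DMSO (SD, n = 3 each), a log2 fold change of 1.66 (SE 0.23, 95% interval 1.11 to 2.21, edgeR adjusted p = 0.00542). It remained called when any library was left out, with log2 fold changes of 1.43 to 1.84. The change was also past a filter in the study's methods (adjusted p at most 0.1, log2 fold change at least 1). Of all tested genes 6.25% passed it upward. In the study it narrowed splicing events by the DESeq2 result of their genes. Here its thresholds were applied to gene changes alone.

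Clk1, the founding member of the family, lies at chr1:58410189-58424066 on the minus strand. It had 115, 91.1 and 96.5 CPM in the G786-1089 libraries and 58.1, 74.5 and 62.1 CPM in the DMSO libraries. The groups did not overlap, and the gap was narrower than for Clk4. The log2 fold change was 0.63 (SE 0.15, 95% interval 0.27 to 0.99, edgeR adjusted p = 0.0356). Without DMSO library B the adjusted p was 0.0472, but the call was lost without any of the other 5 libraries (adjusted p 0.0563 to 0.119, with log2 fold changes of 0.53 to 0.70). It was also lost with the replicate block (edgeR adjusted p = 0.104).

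Several of the kinases have annotated transcripts that keep an intron. These are 7 of 13 transcripts of Clk1 and 7 of 14 of Clk4, and likewise 6 of 13 of Srpk1, 4 of 9 of Clk3, 4 of 11 of Clk2 and 3 of 10 of Srpk2. The basic transcript set, which the authors used for counting in its Ensembl form, held 1 Clk1 transcript and 3 Clk4 transcripts in GENCODE vM21. Dyrk3 has 2 annotated transcripts, and 0 of them keep an intron. Introns were not analysed here.

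Clk3 and Clk2, the other CLK kinases, did not pass the test. Clk3 had 72.8, 71.3 and 62.6 CPM in the G786-1089 libraries and 59.8, 68.6 and 41.5 CPM in the DMSO libraries. The groups overlapped, with DMSO library C the lowest. Its log2 fold change was 0.28 (SE 0.20, 95% interval -0.21 to 0.77, edgeR adjusted p = 0.435). Over all annotated transcripts 15.2% of its exonic bases are shared with Edc3 on the other strand, which had a log2 fold change of 0.22 and was not called. The longest stretch that its basic transcript shared with Edc3 was 415 bases. The libraries do not keep the strand, so reads from bases shared by the counted transcripts could not be assigned to either gene.

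Clk2 was the least evenly counted of the tested members. It had 6.77, 15.7 and 7.26 CPM in the G786-1089 libraries and 11.1, 4.57 and 0.736 CPM in the DMSO libraries. Both groups were spread widely, with a coefficient of variation of 50.7% with G786-1089 and 95.7% with DMSO, and they overlapped. Its log2 fold change of 0.86 had an SE of 0.88 and a 95% interval from -1.24 to 2.96 (edgeR adjusted p = 0.598). Both a large increase and a large decrease lie within that interval.

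DYRK kinases activate themselves by phosphorylating a tyrosine in their activation loop. The coding sequences from that point (GRCm38 transcripts) are shown for all 4 members, since Dyrk2 and Dyrk3 form a closely related pair that reads must tell apart. Capitals mark the codons of the tyrosine-x-tyrosine motif.
Dyrk1a: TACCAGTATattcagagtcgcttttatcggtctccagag
Dyrk1b: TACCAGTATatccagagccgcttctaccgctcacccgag
Dyrk2: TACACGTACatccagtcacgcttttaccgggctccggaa
Dyrk3: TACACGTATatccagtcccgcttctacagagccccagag
Dyrk2 and Dyrk3 differed at 8 of these 39 bases. Over the coding sequence they share 68.5% of bases, with a longest common run of 29 bases.

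Dyrk3, the kinase that dissolves speckles and other condensates, had the largest log2 fold change of the tested members. It lies at chr1:131127455-131138340 on the minus strand. It had 46.8, 51.3 and 52.6 CPM in the G786-1089 libraries and 19.2, 11.3 and 14.98 CPM in the DMSO libraries. The treated libraries were close together and all above the controls. Its mean was 50.2 ± 3.05 CPM with G786-1089 and 15.1 ± 3.95 CPM with DMSO (SD, n = 3 each), a log2 fold change of 1.73 (SE 0.23, 95% interval 1.18 to 2.28, edgeR adjusted p = 0.00484). It was past the study's filter, and remained called with each library left out (log2 fold change 1.55 to 1.93). By p-value Dyrk3 ranked 528 and Clk4 577 among the 15082 tested genes, and 93.1% and 92.6% of these had a lower log2 fold change.

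Dyrk2, a kinase with roles in p53 signalling and protein turnover, did not pass the test. It had 2.30, 2.02 and 3.17 CPM in the G786-1089 libraries and 3.14, 1.72 and 5.19 CPM in the DMSO libraries. DMSO library C was the highest and DMSO library B the lowest, so that the DMSO range enclosed the treated libraries. The log2 fold change was -0.42 (SE 0.56, 95% interval -1.76 to 0.91, edgeR adjusted p = 0.695). Without DMSO library C it was 0.033. Dyrk1a, a kinase encoded in the mouse counterpart of the Down syndrome region, had 18.7, 21.5 and 24.1 CPM in the G786-1089 libraries and 16.6, 10.5 and 16.3 CPM in the DMSO libraries. All treated libraries were above all controls, but the log2 fold change of 0.56 did not pass (SE 0.26, 95% interval -0.051 to 1.18, edgeR adjusted p = 0.214).

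Dyrk1b, the closest relative of Dyrk1a, had 0 counts in all 3 G786-1089 libraries and 0, 6 and 57 counts in the DMSO libraries. Nearly all of its counts came from DMSO library C, and DMSO library A was at 0 like the treated libraries. If reads were independent draws, a count of 0 would allow an expected count of up to 3 per library (upper 95% bound). Amplified reads are not independent molecules, so the bound may be higher. The gene was below the filter on low counts, and without that filter it did not pass (edgeR adjusted p = 0.209).

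**Figure D2:**
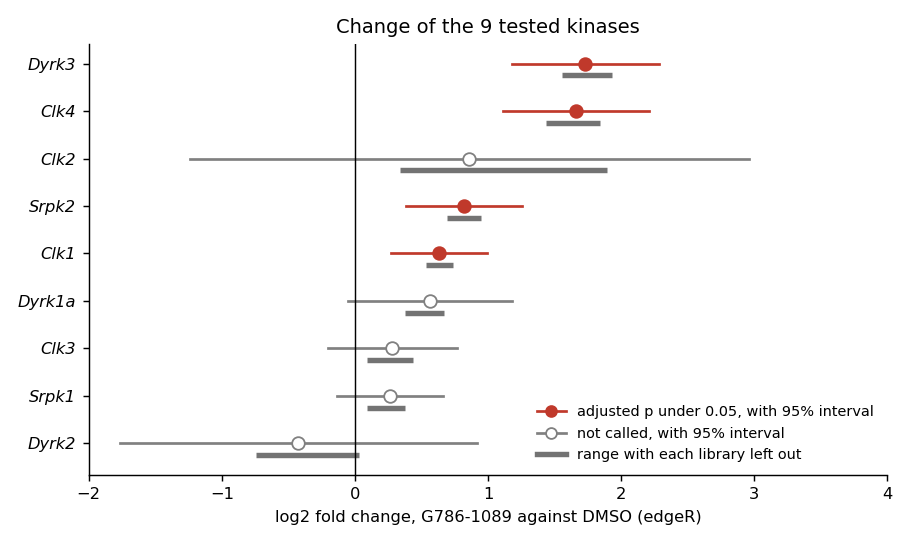
The log2 fold change of the 9 tested kinases (G786-1089 against DMSO, edgeR) with its 95% interval, in red where the adjusted p was under 0.05; the dark bar below each gives the range over the 6 fits with 1 library left out. Dyrk3 (1.73) and Clk4 (1.66) have the highest values, and the interval of Clk2 is the widest.

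Srpk2, a cytoplasmic SR protein kinase found mainly in nervous tissue, lies at chr5:23503264-23684617 on the minus strand. It had 83.6, 69.8 and 61.0 CPM in the G786-1089 libraries and 36.6, 37.1 and 47.5 CPM in the DMSO libraries. Every treated library was above every control library, and the log2 fold change was 0.82 (SE 0.18, 95% interval 0.39 to 1.26, edgeR adjusted p = 0.0287). The call was lost without G786-1089 library A or B or DMSO library A or B (adjusted p 0.0702 to 0.0956) and with offsets for gene length (log2 fold change 0.55, adjusted p = 0.0783) or the replicate block (adjusted p = 0.0914), and it was kept without library C of either treatment. Of its exonic bases over all annotated transcripts 6.99% are shared with Kmt2e on the other strand, which had a log2 fold change of 0.27 and was not called.

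Srpk1, the widely expressed member of the pair, had 99.6, 110 and 146 CPM in the G786-1089 libraries and 108, 94.2 and 93.3 CPM in the DMSO libraries. The groups overlapped, with G786-1089 library C the highest. The log2 fold change was 0.27 (SE 0.17, 95% interval -0.13 to 0.66, edgeR adjusted p = 0.361). Its basic transcripts share stretches of at least 100 bases at 95% identity or more with 83 other genes, the longest of 167 bases, so the origin of some of its reads is uncertain.

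Leaving out single libraries changed the number of called kinases. It was 2 without G786-1089 library A, G786-1089 library B or DMSO library A, against 4 with all libraries, and 3 without any other library. Clk4 and Dyrk3 were the kinases called each time.

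Levels of different genes were compared in FPKM, which is scaled by gene length. With DMSO the order of the means was Clk1 (33.2 FPKM), Clk4 (27.3), Clk3 (20.8), Srpk1 (14.6), Srpk2 (5.72), Dyrk3 (4.40), Clk2 (2.32), Dyrk1a (2.12), Dyrk2 (0.503) and Dyrk1b (0.130). Neighbours in this order overlapped between libraries, except that Srpk1 lay above Srpk2 and Dyrk1a above Dyrk2 in all libraries. With G786-1089 Clk4 led with 86.2 ± 23.1 FPKM, before Clk1 with 51.4 ± 6.07 (SD, n = 3 each). Single libraries ranged from 67.7 to 112 FPKM for Clk4 and from 46.8 to 58.2 FPKM for Clk1, so that these neighbours were apart. Of the further neighbours in the order with G786-1089, Srpk1 and Dyrk3 overlapped, as did Clk2 and Dyrk1a. Dyrk3 passed Srpk2 in the order of means, with 14.5 ± 0.909 against 10.1 ± 1.601 FPKM.

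The summed level of the 10 kinases was 210, 237 and 192 FPKM in the G786-1089 libraries and 120, 114 and 99.9 FPKM in the DMSO libraries. The groups were apart. Clk4 made up 40.1 ± 6.4% of this sum with G786-1089 and 24.5 ± 3.5% with DMSO, and Dyrk3 6.89 ± 0.88% and 3.96 ± 0.95%. The share of Clk3 was 11.9 ± 0.79% with G786-1089 and 18.6 ± 3.4% with DMSO, and that of Srpk1 8.39 ± 2.47% and 13.2 ± 0.83% (SD, n = 3 each). For Clk4, Dyrk3, Clk3 and Srpk1 the shares of the 3 libraries of a group did not overlap with those of the other. A share also falls where other members rise. The lower shares of Clk3 and Srpk1 are not decreases in level: their CPM overlapped between the groups, with log2 fold changes of 0.28 and 0.27.

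**Figure D3:**
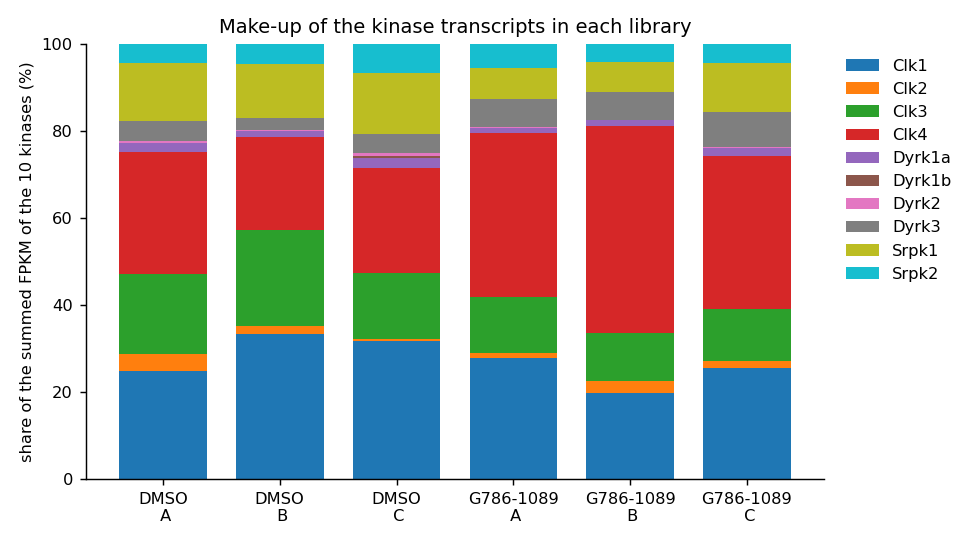
Share of each kinase in the summed FPKM of the 10 kinases (y axis, %), stacked for the 6 libraries. Clk4 takes 35.3 to 47.4% with G786-1089 and 21.3 to 28.1% with DMSO.

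Within a library the ratio of related kinases needs no scaling between libraries. Counts of Clk4 over Clk1 were 1.55, 2.75 and 1.58 with G786-1089 and 1.30, 0.73 and 0.86 with DMSO, and all treated libraries were higher. Counts of Dyrk3 over Dyrk2 were 20.3, 25.4 and 16.6 with G786-1089 and 6.11, 6.54 and 2.89 with DMSO, again without overlap. The difference in mean log2 ratio was 1.02 for Clk4 over Clk1 and 2.07 for Dyrk3 over Dyrk2, each with p = 0.1 in a two-sided exact permutation test. This is the smallest p that 3 libraries against 3 allow (adjusted p = 0.2 over the 4 pairs). It was 0.57 for Srpk2 over Srpk1 (exact permutation p = 0.2, adjusted p = 0.267) and -1.15 for Clk3 over Clk2 (exact permutation p = 0.4). A ratio of Dyrk1b to Dyrk1a could not be formed because of the counts of 0.

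**Figure D4:**
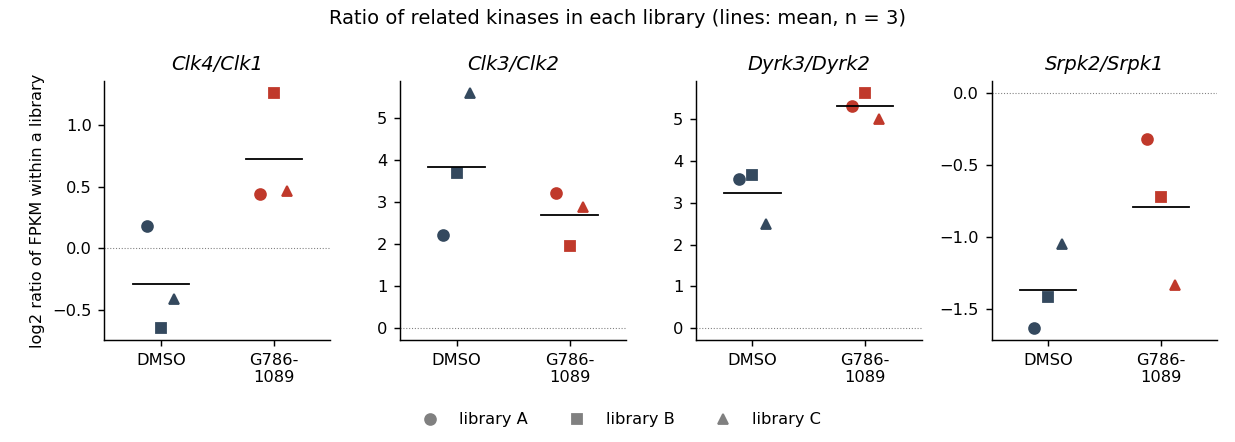
Log2 ratio of FPKM of related kinases within each library (y axes differ between panels; the dotted line marks equal FPKM), with lines at the mean of 3 libraries. The treatments are apart for Clk4/Clk1 and Dyrk3/Dyrk2.

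The promoters of the 2 kinases that rose most are shown because both changed by a similar amount. Promoter windows from RefSeq (GRCm38.p6, from 250 bases before to 50 after a start) were found for 9 of 10 members, 14 windows in all. A member was counted for a motif if any of its windows held it. The percentages below are over single windows, so members with several windows are not in the same unit. The parts printed lie outside annotated exons, chr11:51263047-51263113 on the plus strand for Clk4 and chr1:131138341-131138484 on the minus strand for Dyrk3. The Clk4 stretch lies before the RefSeq start at 51263114 but inside the annotated gene, which begins at 51261730. That of Dyrk3 lies upstream of its annotated gene. Both strands were searched for 6 motifs, and capitals mark matches.
Clk4: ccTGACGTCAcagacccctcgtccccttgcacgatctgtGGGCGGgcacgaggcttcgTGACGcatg
Dyrk3: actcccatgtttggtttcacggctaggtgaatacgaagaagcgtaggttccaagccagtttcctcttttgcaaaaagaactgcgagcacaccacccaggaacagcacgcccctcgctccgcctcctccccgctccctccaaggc
The window of Clk4 held TGACGTCA, the cAMP response element, which occurs in 1.79% of 32851 windows and in 1 of the 9 members. It also held TGACG, which lies on both strands of TGACGTCA and once more alone (20.8% of all windows, 3 members), and GGGCGG, the GC box (35.7%, 8 members). Dyrk3 held none of these, nor ACGTG (19.6%, 4 members), CCAAT (37.4%, 4 members) or TATAAA (13.6%, 1 member). These are matches of letters only, and binding was not measured.

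The nearest tested genes on either side of the kinases were also examined. Eif2d, the neighbour of Dyrk3 at 14.8 kb, had a log2 fold change of -1.07 (edgeR adjusted p = 0.0202), and Mapkapk2, on the other side at 29.6 kb, had -0.013. For Clk4, the nearest tested genes outside it were Zfp354a at 189 kb, with 2.14 (edgeR adjusted p = 0.0276), and Phykpl at 303 kb, with 0.028. Gm25082, on the same strand, overlaps Clk4 and shares 1.02% of its exonic bases over all annotated transcripts. Gm25082 had 1.94 (edgeR adjusted p = 0.193), and BC049762, which also overlaps Clk4, had 1.33 (edgeR adjusted p = 0.645). Dyrk2 shares 5.25% of its exonic bases with 4932442E05Rik. Bzw1, 2.84 kb from Clk1, had -0.49 and was not called (edgeR adjusted p = 0.0526).

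SR proteins, the substrates of these kinases, moved in both directions. Of 10 tested, 2 rose, 2 fell and 6 did not pass, with a median log2 fold change of 0.13. DESeq2 called 4 higher and 2 lower, library size in place of TMM 4 and 1, the replicate block 1 and 1, and the block with gene length offsets 1 and 0. Of the fits with 1 library left out, 3 called 1 and 1 (without G786-1089 library B or C or DMSO library B), 2 called 1 and 2 (without library A of either treatment), and that without DMSO library C called 2 and 0. Srsf6 rose from 219 ± 19.9 to 342 ± 15.6 CPM (log2 fold change 0.64, edgeR adjusted p = 0.00657), and Srsf4, named after its values were seen, rose by 1.04 on the log2 scale (edgeR adjusted p = 0.0344). Srsf9 had a log2 fold change of -1.25 (edgeR adjusted p = 0.0112) and Srsf3, the smallest SR protein, -0.62 (edgeR adjusted p = 0.0198). Srsf2, the most abundant of the list in FPKM, was at 1104 ± 68.8 CPM with G786-1089 and 1089 ± 53.8 CPM with DMSO and was not called (SD, n = 3 each).

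Of 17 SR-related and speckle proteins 5 rose and 0 fell by edgeR (8 and 0 at an unadjusted p under 0.05, and 8 and 0 by DESeq2), and the median was 0.39. Over all 15082 tested genes DESeq2 called 1858 higher and 1811 lower, and the gene ranked 4047 had an unadjusted edgeR p of 0.0436. Thrap3 (log2 fold change 0.91, edgeR adjusted p = 0.0155) and Bclaf1 (0.52, edgeR adjusted p = 0.0161) are SR-related proteins of mRNA processing, and Srrm2 (0.43, edgeR adjusted p = 0.0222) is a scaffold of speckles. Srrm1 (0.68) and Luc7l (0.58) also rose, and were named after their values were seen. With offsets for gene length 1 of the 17 was called, with the replicate block 2 and with both 0. The median with offsets for gene length was 0.15, with 4 higher and 2 lower at an unadjusted p under 0.05 (edgeR). The number was 1 without DMSO library C, 2 without DMSO library A or B, 3 without G786-1089 library A or C and 4 without G786-1089 library B. Rnps1, of the exon junction complex, had 0.16 and did not pass.

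Neither importer passed in edgeR, while 1 passed at an unadjusted p under 0.05 and 1 by DESeq2: Tnpo3, which carries phosphorylated SR proteins into the nucleus, had a log2 fold change of 0.45 (edgeR adjusted p = 0.0994) and Tnpo1 0.43. Of 7 phosphatase genes 1 fell, with a median of -0.45, while 3 were lower at an unadjusted p under 0.05, 3 by DESeq2 and 3 with offsets for gene length. Without G786-1089 library A 2 fell. This was Ppp1ca, a catalytic subunit of protein phosphatase 1, at 763 ± 87.2 CPM with G786-1089 and 1348 ± 45.2 CPM with DMSO (log2 fold change -0.82, edgeR adjusted p = 0.00210). Ppp1cc had 0.085 and Ppp2ca, the catalytic subunit of protein phosphatase 2A, -0.45, and neither passed.

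Of 9 tested kinases related to the members or tied to splicing, 1 rose: Prpf4b, a kinase of the spliceosome, with a log2 fold change of 0.97 (edgeR adjusted p = 0.0254). Their median was 0.95, and with offsets for gene length 0 were called by edgeR (2 at an unadjusted p under 0.05). Without DMSO library B the median was 0.46, and over the 4 genes with enough FPKM for limma it was -0.041. The number called by edgeR was also 0 with the replicate block and without library A or B of either treatment. It was 2 without G786-1089 library C and 1 without DMSO library C. Cdk11b had -0.31 and did not pass, and Hipk2 had 4.44 with an SE of 1.34 (edgeR adjusted p = 0.0751) from 4.45 ± 5.60 CPM with G786-1089 and 0.203 ± 0.130 with DMSO. Among 9 partners of SRPK and DYRK kinases 4 fell and 1 rose, with a median of -0.27 (-0.065 with library size in place of TMM, and -0.44 to -0.12 with each library left out). The chaperone genes Hspa8 (-0.67, edgeR adjusted p = 0.000532), Hsp90ab1 (-0.57, edgeR adjusted p = 0.00405) and Hsp90aa1 (-0.80, edgeR adjusted p = 0.00557) fell, as did Akt2 (-0.61, edgeR adjusted p = 0.0126). Rcan1, a calcineurin regulator that DYRK1A phosphorylates, rose by 0.62 (edgeR adjusted p = 0.0210). Hsp90aa1, Akt2 and Rcan1 were named after their values were seen.

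**Figure D5:**
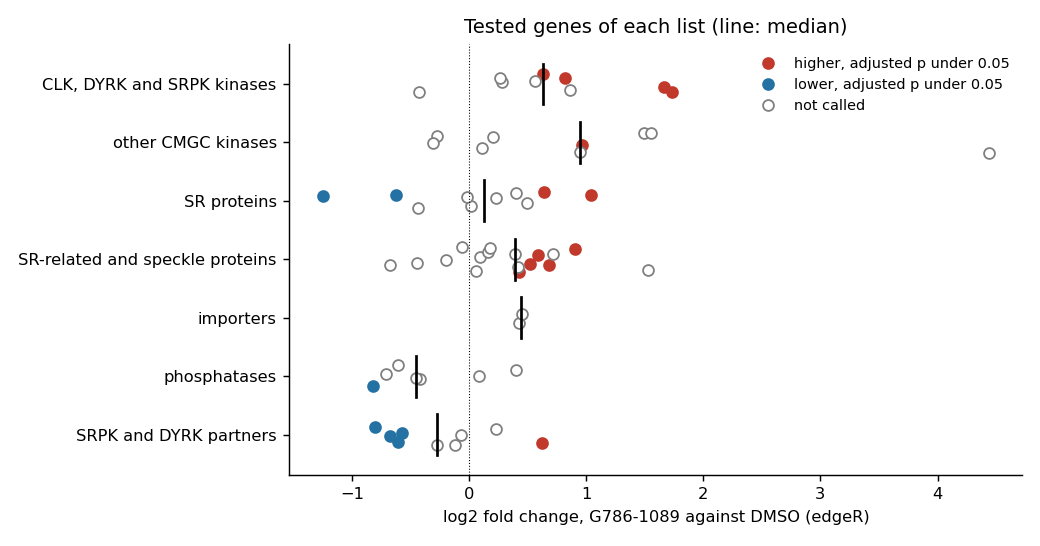
The log2 fold change (x axis, edgeR) of each tested gene in the kinase list and 6 related lists, with filled points where the adjusted p was under 0.05 and a line at the median; vertical position within a list has no meaning. The medians are 0.63 for the kinases, 0.95 for other CMGC kinases (the family to which CLK, DYRK and SRPK belong; 0.46 without DMSO library B), 0.13 for SR proteins and -0.45 for phosphatases.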

How the data were processed

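Libraries were made from αTC1 cells by Smart-seq2, which does not keep the strand, and read as 100 bp paired ends. The deposited counts are raw whole numbers, which the authors obtained by aligning reads to GRCm38 with STAR, counting on Ensembl basic transcripts and adding these up by gene. For the deposited FPKM values the scaling is not given in the sources used here. The submitters' processing notes name STAR 2.7.9a, Picard 2.19.2, DESeq2 1.34.0 and R 4.1.3.

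Here edgeR 4.0.16 (R 4.3.3) was run on the counts with filterByExpr (minimum count 10, minimum total 15), TMM, the quasi-likelihood test and Benjamini-Hochberg adjustment over all tested genes. The SE of a log2 fold change is its size over the root of F. DESeq2 1.42.0 and limma 3.58.1 (log2 FPKM plus a pseudocount of 1 or 0.1) served as alternatives, besides other scalings, filters, gene length offsets, a replicate block and each library left out. Thinning to the lowest total was added after the data were seen. The fits were tested on simulated data. Positions and transcripts come from GENCODE vM21, in which all 10 members have the same coordinates, and shared stretches were found with blastn 2.17.0. Python 3.11.15 with pandas 2.3.3 and matplotlib 3.10.9 served for tables and plots.

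The members and all lists were chosen with earlier results of these data known. Named were all members, in each related list the 2 genes with the highest mean FPKM and the 2 with the smallest p, Smndc1 and cell type markers, of which 1 is not reported here. The count columns give the treatment and a letter, and no source ties the letters to the numbered replicates. The letters were used as names and for the block. Total counts of 59070705 to 94747943 per library leave little counting error except in genes with few counts, and amplified reads are not independent molecules.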

Additional observations from a re-analysis of the deposited data

How the results depend on the processing

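Clk4 and Dyrk3 were called, and past the study's filter, under all 18 alternatives in which they were fitted. Clk1 was called in 10 of 12 alternatives with all libraries and Srpk2 in 8 of 12. With limma on log2 FPKM without a minimum, Srpk2 had 0.72 (adjusted p = 0.0625). Whether the letters of the columns pair the libraries is not stated, and deviations from the group means correlated by 0.0151, 0.00274 and 0.0251 across genes for libraries A, B and C. With the replicate block by letter 2 kinases were called, 1232 genes in all (2230 without it) and 9 genes of the related lists (16 without it). With the replicate block and gene length offsets these were 2, 977 and 6, and the log2 fold change of Srpk1 turned to -0.0135. Clk1 (adjusted p = 0.104 and 0.0969) and Srpk2 (0.0914 and 0.178) lost their call in both block fits. DESeq2 called 3669 genes in all and 25 of the related lists. With library size in place of TMM, the median of the kinases was 0.84 and that of all tested genes 0.25, against 0.041 with TMM; 1630 genes were then higher and 796 lower, against 1053 and 1177. The log2 fold change of Dyrk2 was -0.741 to 0.0326 with each library left out, the latter without DMSO library C.

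With each library left out, the kinases called numbered 2 to 3, those past the filter 2 each time, all genes called 1253 to 1556 and genes of the related lists 8 to 13. The median of the kinases was 0.56 to 0.74. The mean log2 ratio differed by 0.75 to 1.25 for Clk4 over Clk1, 1.70 to 2.29 for Dyrk3 over Dyrk2, 0.34 to 0.84 for Srpk2 over Srpk1 and -1.96 to -0.27 for Clk3 over Clk2. The cause of these changes was not tested. With 3 libraries per treatment a permutation test cannot go below p = 0.1, Dyrk1b and Dyrk2 had few counts, and transcript levels say nothing of kinase activity or protein.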

Other observations

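Srpk3, the muscle-type SR protein kinase, was below the filter on low counts, with 0, 0 and 6 counts in the G786-1089 libraries A, B and C and 6, 287 and 211 in the DMSO libraries. In an edgeR fit without that filter it was lower but not called (edgeR adjusted p = 0.114), and in the 4 fits with 1 library left out that held it the adjusted p was 0.0729 to 0.172. Hipk4 was at 0 in all 6 libraries. Among the markers of other cell types, Col1a2, a collagen gene of fibroblasts, was the 1 called, as lower, with 5, 1 and 0 counts in the G786-1089 libraries and 99, 319 and 64 in the DMSO libraries (edgeR adjusted p = 0.0307). Cela1, an elastase gene, was at 33.5 ± 9.43 CPM with G786-1089 and 14.9 ± 6.28 CPM with DMSO (log2 fold change 1.17, edgeR adjusted p = 0.0848). Without Cela1, Cd68 and Nkx6-1 the summed level of the other 15 markers was 1.41 to 2.39 CPM with G786-1089 and 1.95 to 7.03 CPM with DMSO. AI506816, the annotated noncoding neighbour of Srpk2 at 13.7 kb, had a log2 fold change of -0.86 (edgeR adjusted p = 0.00222), and Vps26c, 43.2 kb from Dyrk1a, had 0.61 (edgeR adjusted p = 0.0390).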
